A study of Sus scrofa with 24 samples.

Results

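The genes described here encode the nuclear subunits of the mitochondrial respiratory chain and ATP synthase, followed through the development of the pig ovary. They were taken by symbol: NDUFA, NDUFB, NDUFC, NDUFS or NDUFV followed by a digit, SDHA to SDHD, symbols starting with UQCR, COX4 to COX8, and symbols starting with ATP5. A total of 69 of the 18753 genes in the deposited table met this rule. By their products, 36 belong to complex I, 4 to complex II, 2 to complex III, 10 to complex IV and 15 to complex V, which is ATP synthase. Another 2 genes were set apart from the subunits by their annotation and are called assembly proteins here. ATP5SL is annotated as distal membrane arm assembly component 2, and ATP5S only as like that component. All 69 genes matched the RefSeq gene table (Sscrofa11.1). A further 27 genes encode subunits or close partners but stand under other symbols, such as cytochrome c oxidase subunit 4I1 or the Rieske protein. They were found by product description after the table had been seen and are named where an isoform pair needs them.

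Ovaries came from healthy sows of the Chenghua breed, 3 sows at each of 4 stages, and no treatment or genetic change was named. The stages were postnatal day 3 (Day 3), postnatal day 120 at the start of puberty (Puberty), sexual maturity at 1 year (Year 1) and day 105 of pregnancy (Pregnancy). Each library was made from oligo(dT)-captured mRNA of ovary fragments, so the piece of ovary sampled can differ between sows. The 12 libraries held 14615493 to 16187916 expected counts each. P-values measure the spread between the 3 libraries within a stage, pooled for each gene over all 4 stages. Those of 1 pair therefore also depend on the stages not compared. In Year 1, replicate 1 stood apart from replicates 2 and 3, and in Pregnancy, replicate 3 stood apart from replicates 1 and 2. STAR, the cholesterol carrier of steroid-making cells, was at 50.7, 5294 and 5107 TPM in Year 1 and at 5.88, 11.8 and 3949 TPM in Pregnancy. A list of 8 luteal and steroidogenic markers, all present in the table, summed to 1660, 23000 and 20200 TPM in Year 1 and to 566, 629 and 68600 TPM in Pregnancy. Of the 68600 TPM in Pregnancy replicate 3, 49365 TPM came from RLN2 alone, which had 293 and 265 TPM in Year 1 replicates 2 and 3. The same list summed to 190 to 226 TPM on Day 3 and to 1090 to 1880 TPM at Puberty.

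The respiratory chain passes electrons from NADH and succinate to oxygen through complexes I to IV in the inner mitochondrial membrane. Complexes I, III and IV pump protons as they do so, and ATP synthase lets the protons back to make ATP. Most subunits are encoded in the nucleus, while a few core subunits come from mitochondrial DNA and were not analysed here. In the ovary, steroid-making cells of the corpus luteum are rich in mitochondria, where cholesterol is turned into pregnenolone. Bulk libraries cannot tell fewer cells of a type from less RNA per cell.

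These genes were among the abundant transcripts of the ovary. Their mean level over the 12 libraries had a median of 243 TPM (a library-scaled level per transcript length) for the 68 that passed the count filter, against 12.9 TPM for all genes tested. A mean above 100 TPM was found for 59 of the 69. The lowest of the 68 was ATP5S at 12.4 TPM and the highest was COX7C, a small subunit of complex IV, at 1710 TPM. COX8H, the only gene that failed the filter, had 2 counts in all. Across the 12 libraries the 68 genes ranged over a median of 1.47 on the log2 scale, against 1.94 for all genes tested. NDUFA4L2 ranged over 3.89 and NDUFB11 over 3.49, while ATP5G2 ranged over 0.60.

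Together the 69 genes made up 2.62% ± 0.136 of TPM for Day 3, 2.36% ± 0.266 for Puberty, 2.96% ± 0.162 for Year 1 and 2.31% ± 0.644 for Pregnancy (SD, n = 3 each). The single libraries held 2.73%, 2.67% and 2.47% for Day 3, 2.61%, 2.38% and 2.08% for Puberty, 2.77%, 3.05% and 3.05% for Year 1, and 1.94%, 1.93% and 3.05% for Pregnancy. The highest shares were therefore in Year 1 replicates 2 and 3 and Pregnancy replicate 3, the libraries with the highest STAR level, and the lowest were in the other 2 Pregnancy libraries. On TMM-scaled counts, which correct for the few genes that fill a library, the order was similar for the later stages but Day 3 was low. The median of the 68 genes, as log2 CPM (counts scaled to a common library size) relative to each gene's mean, was -0.32, -0.33 and -0.41 on Day 3 and -0.01, -0.22 and -0.49 at Puberty. It was 0.31, 0.73 and 0.70 at Year 1 and -0.41, -0.35 and 0.52 in Pregnancy. The part of luteal cells in these values was not tested.

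**Figure D1:**
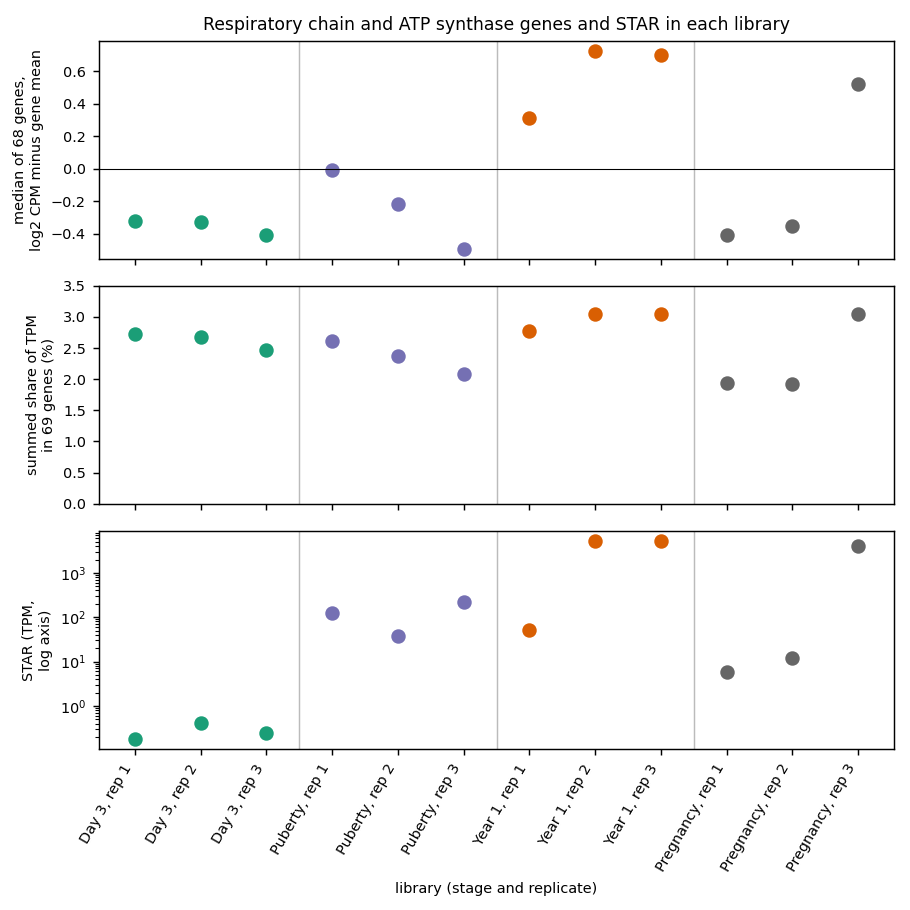
Each point is 1 library, in the order of the stages. The top panel gives the median over 68 genes of log2 CPM minus the gene's mean, the middle panel the summed share of TPM in 69 genes, and the bottom panel STAR in TPM on a log axis; Year 1 replicates 2 and 3 and Pregnancy replicate 3 are high in all 3 panels.

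Gene by gene, the same libraries stood out. In scaled CPM the highest of the 12 libraries was Year 1 replicate 2 for 26 of the 68 genes, Year 1 replicate 3 for 18, Pregnancy replicate 3 for 17 and Year 1 replicate 1 for 7. No Day 3, Puberty or other Pregnancy library was the highest for any of them. Within Pregnancy, replicate 3 was the highest library for 65 of 68 genes, and within Year 1, replicate 1 was the lowest for 55. Puberty replicate 1 was the highest of its stage for 62 genes and Puberty replicate 3 the lowest for 58. In TPM, Day 3 libraries were the highest of the 12 for 6, 12 and 3 genes, and Pregnancy replicates 1 and 2 were the lowest for 35 and 18 genes. Such ranks are not given for all genes. In scaled CPM, Year 1 replicate 2 and Pregnancy replicate 3 lay above all Puberty libraries for 64 and 63 of the 68 genes, against 38.0% and 35.8% of all genes. In TPM, Pregnancy replicates 1 and 2 lay below all Puberty libraries for 53 and 50 of the 68 genes, against 51.4% and 51.6% of all genes.

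**Figure D2:**
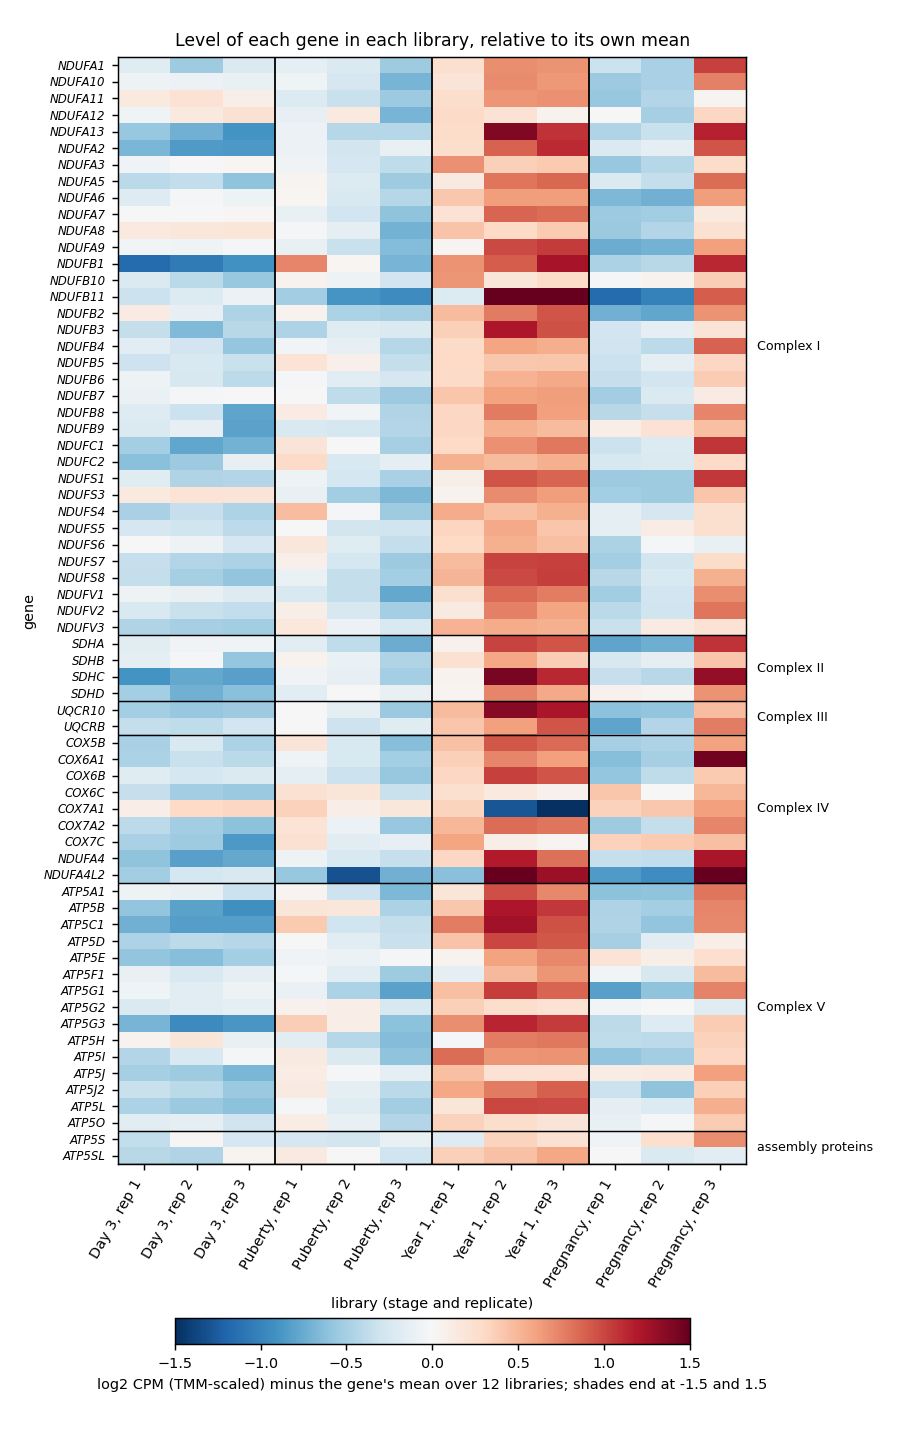
Rows are 67 of the 68 genes that passed the count filter, grouped by complex, and columns are the 12 libraries. Colour gives TMM-scaled log2 CPM minus the gene's own mean, blue below it and red above it; Year 1 replicates 2 and 3 and Pregnancy replicate 3 are red for most genes, and COX7A1 is blue in the Year 1 pair.

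Any difference among the 4 stages was found for 37 of the 68 genes by edgeR's quasi-likelihood test at an adjusted p under 0.05, against 46.0% of all 15699 genes tested. By complex these were 18 of 36 in complex I, 2 of 4 in complex II, 1 of 2 in complex III, 6 of 9 in complex IV, 9 of 15 in complex V and 1 of the 2 assembly proteins. The count was 22 without Day 3 replicate 2, 24 without Year 1 replicate 2, and 20 without Year 1 replicate 3. It was 62 without Pregnancy replicate 3, where 55.0% of all genes were called. The lower counts have no such share beside them, so they do not show a loss particular to the 68 genes.

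Year 1 over Day 3 held the most calls. Of the 68 genes, 46 rose and 0 fell, where 24.0% of all genes tested rose and 24.0% fell. The median log2 change was 0.90 for the 68 genes and 0.03 for all genes. The rise covered 24 of 36 genes of complex I, 3 of 4 of complex II, both of complex III, 6 of 9 of complex IV and 10 of 15 of complex V. COX7A1 alone had a negative log2 change, -0.84 ± 0.43 (SE), which did not pass (edgeR adjusted p = 0.13). Its change was -1.74 without Year 1 replicate 1 (adjusted p = 0.00023) and -0.47 without Year 1 replicate 3. Of the 46 rises, 30 were called again in each of the 12 fits that left out 1 library, and the count ran from 32 to 61. Shares of all genes in these fits are not given here, so a loss particular to the 68 genes is not shown. The authors' deposited table has 60 of the 69 genes higher at a q-value under 0.05 and 0 lower. Of its 18534 genes with a q-value, 4149 were higher and 4458 lower at that threshold, or 46.4% in either direction.

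The size of the Year 1 rise depended on the scaling. TMM factors were 0.94, 0.75 and 0.78 at Year 1, but 1.21 to 1.25 on Day 3. With library totals in place of TMM, the median of all genes tested moved to -0.56 and that of the 68 genes to 0.31, and 19 rose and 1 fell, against 10.7% of all genes higher and 39.6% lower. The distance between both medians was 0.86 with library totals and 0.87 with TMM. In TPM, which is also a share of the library, 19 of the 68 genes were higher in every Year 1 library than in every Day 3 library and 13 were lower, where 9.29% and 55.0% of all genes were. Of the 46 genes called as rises, 18 were higher in TPM without overlap, and NDUFA7, NDUFB7, NDUFS6 and ATP5G2 were lower without overlap.

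Puberty over Day 3 gave few calls. ATP5G3, COX7C, ATP5J and ATP5E rose and none of the 68 genes fell, against 11.5% of all genes higher and 17.2% lower (edgeR adjusted p under 0.05). The median log2 change was 0.15 for the 68 genes and 0.04 for all genes. The count was 0 without any 1 of the Day 3 libraries or Puberty replicates 1 or 2, and 2 without Puberty replicate 3 or Pregnancy replicate 2. Shares of all genes do not stand beside these counts, so a loss particular to the 68 genes is not shown. Without Pregnancy replicate 3, 11 rose and 2 fell, against 14.9% of all genes higher and 20.1% lower. With library totals in place of TMM, 0 rose and 6 fell, against 5.47% higher and 21.5% lower. The authors' deposited table has 16 of the 69 genes higher and 4 lower at a q-value under 0.05. There, 45.9% of all genes passed in either direction.

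For Year 1 over Puberty, edgeR called none of the 68 genes, in a comparison where 0.0255% of all genes were called, 0.00637% higher and 0.0191% lower. The median log2 change was nevertheless 0.84, against -0.03 for all genes, and 67 of the 68 values were positive. Scaled CPM was higher in every Year 1 library than in every Puberty library for 59 genes, where 14.2% of all genes were. An unadjusted p under 0.05 was found for 53 genes and for 31.2% of all genes, and the lowest adjusted p among the 68 was 0.062. DESeq2 called 34 genes higher and 0 lower, where it called 21.2% of all genes, 12.3% higher and 8.92% lower; limma voom with quality weights called 62 higher and 1 lower, where it called 29.3% higher. Leaving out Year 1 replicate 1 gave 43 higher and 1 lower with edgeR, against 18.5% of all genes higher. Leaving out Pregnancy replicate 3, a library of neither stage, gave 50 higher, against 10.7%. Filter, scaling, the pooled spread per gene and adjustment were then recomputed over 16054 genes.

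Pregnancy over Year 1 ran the other way. ATP5D and NDUFA11 fell, and no other of the 68 genes passed, against 1.62% of all genes that fell, 1.34% that rose and 2.96% called in either direction (edgeR adjusted p under 0.05). The median log2 change was -0.58, against 0.05 for all genes, with 63 values negative. Both calls were lost without any 1 of the 6 Day 3 or Puberty libraries, of Year 1 replicates 2 or 3, or of Pregnancy replicates 1 or 2. The share of all genes called in these fits is not given here, so a loss particular to ATP5D and NDUFA11 is not shown. Without Year 1 replicate 1, 22 genes fell and 1 rose, against 13.9% and 16.7% of all genes. Without Pregnancy replicate 3, 51 genes fell and 0 rose, against 18.3% of all genes called in either direction, and the median was -1.01. Pregnancy replicates 1 and 2 alone therefore lay further below Year 1 than the stage mean did. The authors' deposited table has 3 of the 69 genes lower and 0 higher at a q-value under 0.05. There, 4.37% of all genes passed in either direction.

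Pregnancy over Day 3 gave 11 rises and 0 falls, against 15.9% of all genes higher and 18.1% lower (edgeR adjusted p under 0.05). The median log2 change was 0.38, against 0.10 for all genes. The count was 5, 6 and 5 without Day 3 replicates 1, 2 and 3, 7 without Puberty replicate 2 and 17 without Year 1 replicate 1, where 44.0% of all genes were called. The lower counts stand without such a share, so a loss particular to the 68 genes is not shown. Without Pregnancy replicate 3, 5 rose and 4 fell, against 12.3% of all genes higher and 17.0% lower, and the median was 0.03. With library totals, 1 rose and 5 fell, against 6.04% higher and 24.7% lower. For Pregnancy over Puberty edgeR, DESeq2 and limma voom each called 0 of the 68 genes, against 0.0%, 0.623% and 0.745% of all genes. An unadjusted p under 0.05 was found by edgeR for 2 of the 68 and for 7.36% of all genes. The median was 0.22 with Pregnancy replicate 3 and -0.16 without it. At a q-value under 0.05 the authors' deposited table has 9 of the 69 genes higher and 0 lower for Pregnancy over Day 3. For Pregnancy over Puberty it has 0 of 68. Of all its genes, 39.1% and 0.456% passed in these pairs, in either direction. The comparisons share libraries and are not independent of each other.

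Read library by library in scaled CPM, with every library of the later stage above or below every library of the earlier one, the picture was similar. Year 1 lay above Day 3 for 60 of the 68 genes and below for 0, against 28.0% and 30.9% of all genes. Pregnancy lay above Year 1 for 1 gene and below for 20, against 10.7% and 9.03%. Year 1 lay below Puberty for 0 genes, against 16.7%. Puberty lay above Day 3 for 17 and below for 10, against 30.2% and 31.4%, so that its share was near or under that of all genes. Pregnancy lay above Day 3 for 24 and below for 1, against 28.6% and 28.0%, and above Puberty for 7 and below for 0, against 6.4% and 6.16%.

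In TPM, Year 1 lay above Puberty for 36 genes and below for 1, COX7A1, against 4.2% and 33.1% of all genes. Pregnancy lay above Year 1 for 1 gene, again COX7A1, and below for 19, against 10.7% and 7.27%. Puberty lay above Day 3 for 2 and below for 29, against 15.0% and 45.0%. Pregnancy lay above Day 3 for 2 and below for 21, against 7.6% and 52.7%, and above Puberty for 1 and below for 2, against 1.29% and 24.4%.

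**Figure D3:**
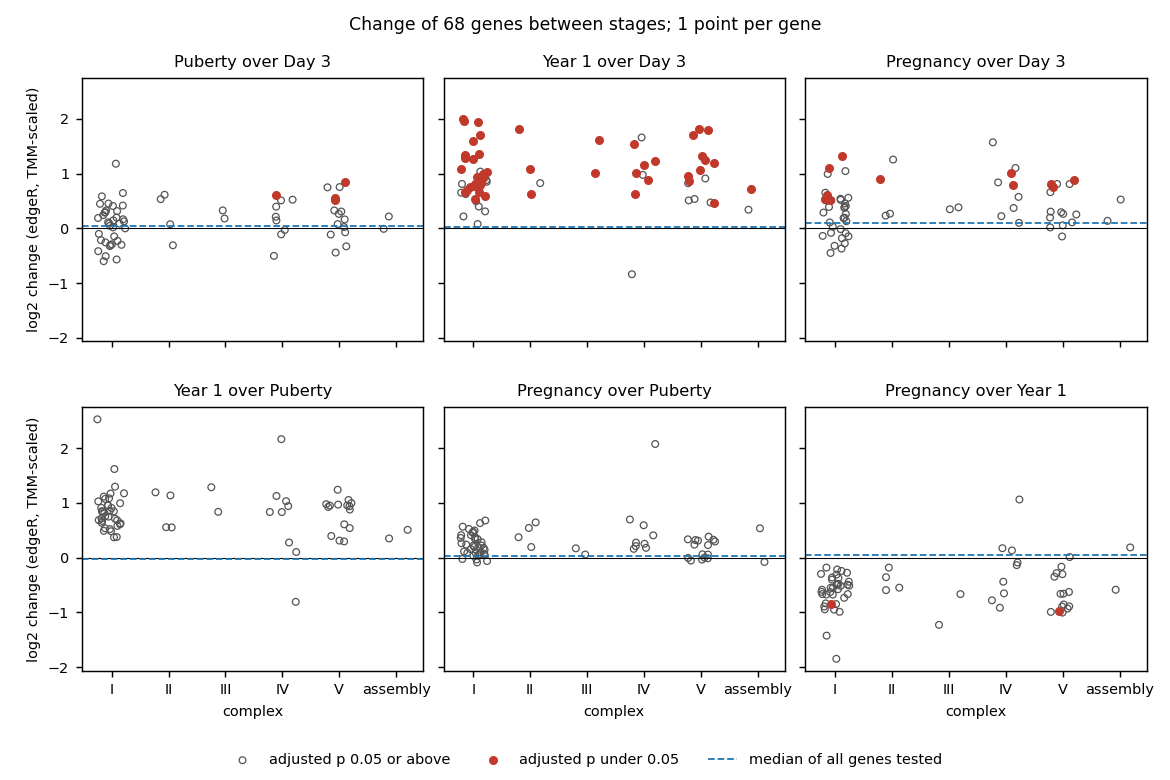
Each point is 1 of 68 genes, with its log2 change from edgeR on the vertical axis and its complex on the horizontal axis, 1 panel per pair of stages. Filled points passed an adjusted p of 0.05, and the dashed line is the median of all genes tested; 46 points are filled for Year 1 over Day 3, against 4, 11, 0, 0 and 2 in the other panels.

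Complex I, the NADH dehydrogenase, was covered by 36 genes, and its summed share of TPM was 0.841% ± 0.0449 for Day 3, 0.687% ± 0.0831 for Puberty, 0.907% ± 0.0619 for Year 1 and 0.655% ± 0.204 for Pregnancy (SD, n = 3 each). Accessory subunits, which surround the core that carries the electrons, make up most of these genes.

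NDUFB11, an accessory subunit of the membrane arm, showed the widest range within complex I. It had 174, 188 and 201 TPM on Day 3, 113, 92.6 and 92.6 TPM at Puberty, 126, 575 and 510.4 TPM at Year 1 and 65.2, 70.8 and 242 TPM in Pregnancy. Its rise for Year 1 over Day 3 was 1.96 ± 0.65 on the log2 scale (edgeR adjusted p = 0.029) and was lost in 5 of the 12 fits that left out 1 library, with an adjusted p of up to 0.0937 without Year 1 replicate 2. NDUFB11 overlaps RBM10 on chromosome X (41770929 to 41773879), and the sources used here do not state that counting used strand. RBM10 ran from 66.7 to 128 TPM over the 12 libraries and had 106, 86.6 and 105 TPM in Year 1 replicates 1, 2 and 3. Its part in the NDUFB11 counts was not tested.

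NDUFB1, another membrane-arm subunit, had the largest change for Year 1 over Day 3, 2.00 ± 0.47 (edgeR adjusted p = 0.0058), and also rose in Pregnancy over Day 3 by 1.32 ± 0.46 (adjusted p = 0.047). Its levels were 107, 113 and 121 TPM on Day 3, 281, 184 and 116 TPM at Puberty, 228, 234 and 306 TPM at Year 1 and 111, 115 and 299.6 TPM in Pregnancy. All 3 Year 1 libraries lay above Day 3, whereas the Puberty and Pregnancy libraries were spread widely. The Pregnancy call was lost in 7 of 12 fits, with an adjusted p of 0.225 without Pregnancy replicate 3.

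NDUFB3 gave the lowest p of complex I in the test of any stage (edgeR adjusted p = 0.0027). It had 129, 103 and 121 TPM on Day 3, 88.3, 113 and 115 TPM at Puberty, 136, 202 and 176 TPM at Year 1 and 89.7, 98 and 112 TPM in Pregnancy. The Year 1 libraries lay above all 9 others. NDUFV3, a small subunit beside the flavin site, followed (adjusted p = 0.0041), with 315, 293 and 286 TPM at Year 1 against 213, 195 and 190.5 TPM on Day 3. Its rise of 1.02 ± 0.16 was thus about even over the 3 Year 1 libraries, unlike that of NDUFB11. NDUFA2 rose in Year 1 over Day 3 by 1.60 ± 0.32 (adjusted p = 0.0025) and in Pregnancy over Day 3 by 1.10 ± 0.31 (adjusted p = 0.021). The Pregnancy call of NDUFA2 was lost in 4 of 12 fits, with an adjusted p of up to 0.0748 without Day 3 replicate 2, and its change was 0.62 without Pregnancy replicate 3.

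NDUFA11, an accessory subunit of the membrane arm, had another course. Its level was 342, 355 and 318 TPM on Day 3, 193, 187 and 169 TPM at Puberty, 230.0, 256 and 272 TPM at Year 1 and 136, 148 and 185 TPM in Pregnancy. Day 3 was the highest stage in TPM, and no stage overlapped with Day 3 or with Year 1. It fell in Pregnancy over Year 1 by 0.85 ± 0.19 on the log2 scale (edgeR adjusted p = 0.047), while the change for Year 1 over Day 3, 0.40 ± 0.19, did not pass. NDUFS5, the most abundant complex I gene, lay between 431 and 613 TPM in all 12 libraries. On TMM-scaled counts it rose in Year 1 over Day 3 by 0.75 ± 0.15 (edgeR adjusted p = 0.0023). With library totals the change of NDUFS5 was 0.15 (edgeR adjusted p = 0.369), and its mean TPM was 553 at Year 1 and 579 on Day 3. NDUFS1 and NDUFV1, core subunits of the NADH-oxidising arm, did not pass for Year 1 over Day 3, with log2 changes of 1.04 ± 0.41 (adjusted p = 0.056) and 0.77 ± 0.30 (adjusted p = 0.055). NDUFB9 gave the lowest p for Pregnancy over Puberty, 0.57 ± 0.18, with an adjusted p of 0.67.

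Complex II, succinate dehydrogenase, joins the citric acid cycle to the chain. Its flavin subunit SDHA had 207, 225 and 223 TPM on Day 3, 159.5, 143 and 117 TPM at Puberty, 169, 248 and 248 TPM at Year 1 and 90.8, 95 and 299 TPM in Pregnancy. Pregnancy replicate 3 was the highest library and the other 2 Pregnancy libraries were the lowest, and no pair of stages passed. SDHC, a membrane anchor, had 139, 281 and 242 TPM at Year 1 and 107, 117 and 113 TPM on Day 3, so that the Year 1 libraries lay above Day 3, and it reached 301 TPM in Pregnancy replicate 3. The membrane anchors SDHC and SDHD rose in Year 1 over Day 3 by 1.80 ± 0.47 and 1.09 ± 0.22 on the log2 scale (edgeR adjusted p = 0.01 and 0.0029). The iron-sulphur subunit SDHB rose by 0.62 ± 0.22 (adjusted p = 0.04), a call lost in 6 of 12 fits. With library totals the change of SDHB was 0.019 (edgeR adjusted p = 0.942). Its mean TPM was 175 at Year 1 and 198 on Day 3. SDHD also rose in Pregnancy over Day 3, by 0.90 ± 0.22 (adjusted p = 0.011). Its levels were close together, from 66.9 to 105 TPM over the 12 libraries, so that the 3 Day 3 and 3 Pregnancy libraries overlapped in TPM.

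Complex III, which passes electrons to cytochrome c, was covered by UQCR10 and UQCRB under the symbol rule. UQCR10, a small membrane subunit, had 709, 670.0 and 646 TPM on Day 3, 701, 677 and 529 TPM at Puberty, 806, 1362 and 1272 TPM at Year 1 and 423, 429 and 783 TPM in Pregnancy. All Year 1 libraries lay above the rest, and its log2 change over Day 3 was 1.61 ± 0.32 (edgeR adjusted p = 0.0027). UQCRB rose by 1.01 ± 0.34 (adjusted p = 0.03), a call lost in 5 of 12 fits, with an adjusted p of up to 0.0939 without Year 1 replicate 3. The summed TPM share of both was 0.0572%, 0.0619% and 0.117% in the Pregnancy libraries and 0.113%, 0.168% and 0.169% in the Year 1 libraries. Of 7 genes of the complex tested under other symbols, 6 rose in Year 1 over Day 3, against 24.0% of all genes, and subunit VII did not pass (adjusted p = 0.0821). Core protein 1 (UQCRC1) had 239, 217 and 213 TPM on Day 3, 199, 499 and 419 TPM at Year 1 and 99.9, 107 and 219 TPM in Pregnancy, and rose in Year 1 over Day 3 by 1.58 ± 0.43 (adjusted p = 0.012). The Rieske iron-sulphur protein (UQCRFS1) rose by 1.72 ± 0.42 (adjusted p = 0.007). Cytochrome c1, named after its values were seen, rose by 1.49 ± 0.29 in Year 1 over Day 3 (adjusted p = 0.0024) and fell by 1.35 on the log2 scale in Pregnancy over Year 1 (adjusted p = 0.046), with 119, 133 and 192 TPM in Pregnancy against 262, 399 and 351 TPM at Year 1.

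**Figure D4:**
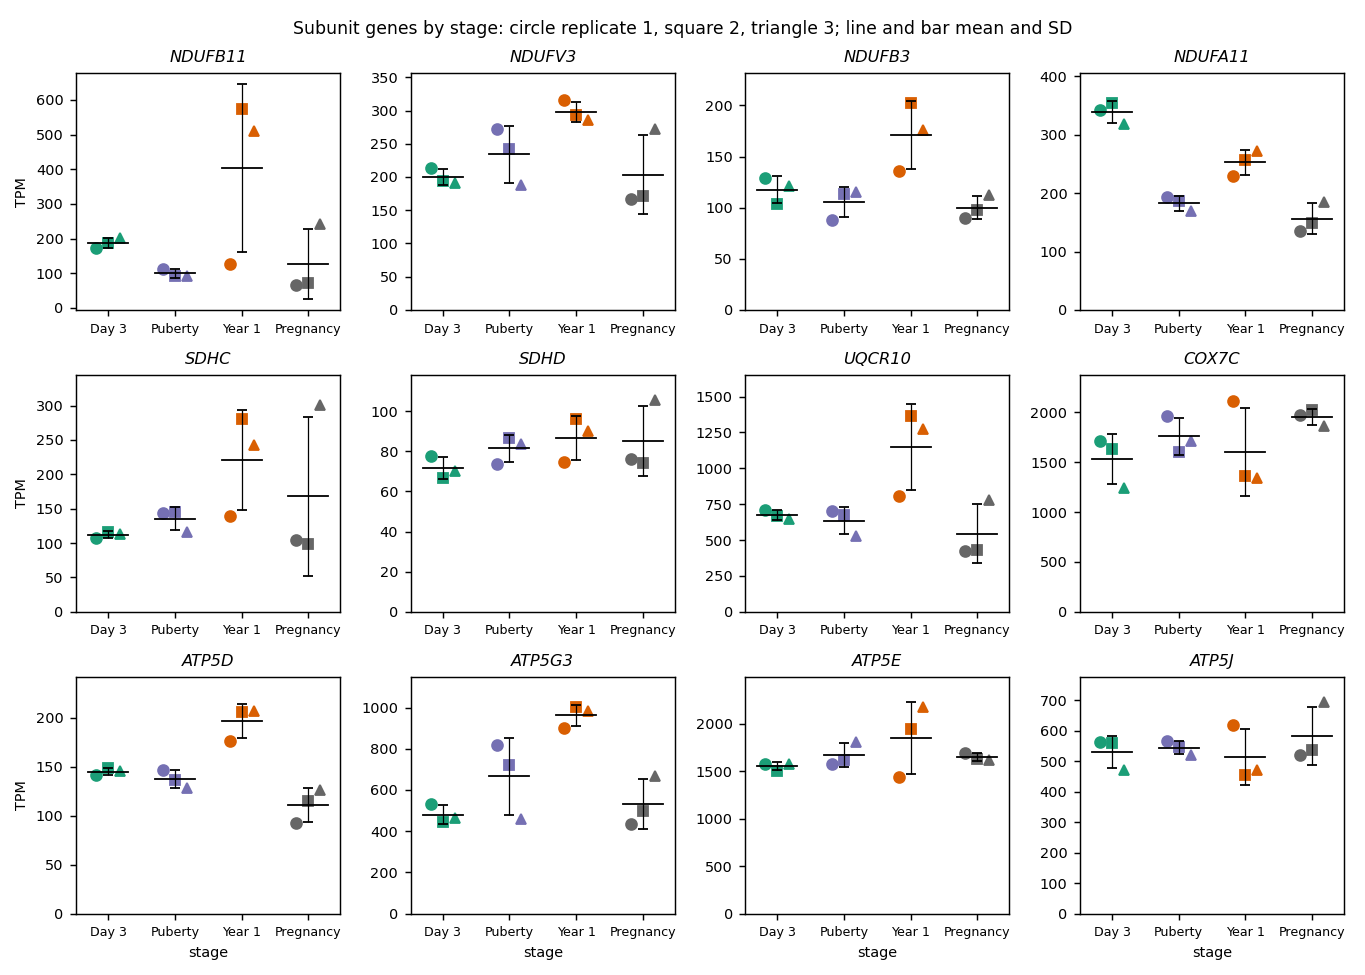
TPM of 12 subunit genes in each library, by stage; circles, squares and triangles are replicates 1, 2 and 3, the line is the stage mean and the bar its SD (n = 3). NDUFB11, SDHC and UQCR10 are highest in Year 1 replicates 2 and 3, except SDHC, which is highest in Pregnancy replicate 3; for ATP5D and ATP5G3 all 3 Year 1 libraries lie above Day 3.

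Complex IV, cytochrome c oxidase, hands the electrons to oxygen, and several of its subunits exist as paired isoforms that differ between tissues. COX5B rose in Year 1 over Day 3 by 1.15 ± 0.32 on the log2 scale (edgeR adjusted p = 0.013), COX6B by 1.01 ± 0.27 (adjusted p = 0.011) and NDUFA4, a subunit once assigned to complex I, by 1.54 ± 0.40 (adjusted p = 0.0096). NDUFA4 had 655, 552 and 546 TPM on Day 3, 673, 652 and 633 TPM at Puberty, 728, 1214 and 962 TPM at Year 1 and 535, 525 and 1415 TPM in Pregnancy. COX6A1 reached 2685 TPM in Pregnancy replicate 3, against 707 and 775 TPM in the other 2 Pregnancy libraries and 1342 to 1471 TPM at Year 1, and passed in no pair. Subunit 4I1, the common form of subunit 4, rose in Year 1 over Day 3 by 1.05 ± 0.17 (adjusted p = 0.00089) and in Pregnancy over Day 3 by 0.83 ± 0.17 (adjusted p = 0.0042).

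COX7C, the most abundant gene of complex IV, rose in Puberty over Day 3 by 0.61 ± 0.19 (edgeR adjusted p = 0.037), in Year 1 over Day 3 by 0.89 ± 0.19 (adjusted p = 0.0041) and in Pregnancy over Day 3 by 1.02 ± 0.19 (adjusted p = 0.0032). In TPM it had 1715, 1634 and 1247 on Day 3, 1961, 1606 and 1711 at Puberty, 2113, 1359 and 1340.3 at Year 1 and 1975, 2025 and 1868 in Pregnancy. Here the 3 Pregnancy libraries were close together and above Day 3, and Year 1 replicates 2 and 3 were below replicate 1, unlike the 43 genes whose lowest Year 1 TPM was in replicate 1. COX6C likewise had 1391, 1147 and 1121 TPM at Year 1, against 1551, 1363 and 1280 TPM on Day 3. On TMM-scaled counts it rose in Year 1 over Day 3 by 0.62 ± 0.19 (adjusted p = 0.022), a call lost in 2 of 12 fits. It also rose in Pregnancy over Day 3, by 0.80 ± 0.19 (adjusted p = 0.01). With library totals these changes of COX6C were 0.039 (edgeR adjusted p = 0.885) and 0.41 (adjusted p = 0.151). The relative of subunit 7A2 known for joining complexes into larger assemblies (COX7A2L) had 151, 145 and 142 TPM at Year 1 and 154, 165 and 180 TPM on Day 3. Its log2 change of 0.58 ± 0.14 (adjusted p = 0.0075) was -0.015 with library totals.

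COX7A1 and COX7A2 had different courses. COX7A1 is the isoform known from heart and skeletal muscle, and COX7A2 the general one. COX7A1 had 479, 524 and 477 TPM on Day 3, 357, 331 and 357 TPM at Puberty, 275, 94.4 and 69.8 TPM at Year 1 and 352, 362 and 350.3 TPM in Pregnancy. Year 1 replicates 2 and 3 were the lowest of the 12 libraries, while Pregnancy replicate 3 lay beside its stage mates. COX7A2 had 694, 773 and 782 TPM at Year 1 and 628, 567 and 514 TPM on Day 3, and rose by 1.23 ± 0.32 (edgeR adjusted p = 0.0097). The share of COX7A1 in the TPM of both was 43.3%, 48.0% and 48.1% on Day 3, 34.6%, 36.1% and 45.0% at Puberty, 28.4%, 10.9% and 8.19% at Year 1 and 48.8%, 46.4% and 30.7% in Pregnancy. With all 12 libraries and TMM scaling, edgeR passed COX7A1 in no pair of stages, and Year 1 over Puberty was -0.81 ± 0.43 (adjusted p = 0.22). With library totals COX7A1 was lower in Year 1 over Day 3, with a change of -1.34 (adjusted p = 0.0413). Striated muscle markers, of which 7 of 8 were found, summed to 0.89 to 16.2 TPM in any library. Smooth muscle markers, 5 of 5 found, summed to 4270, 958 and 2010 TPM at Year 1 and to 2320, 3170 and 1160 TPM in Pregnancy, and their part in the COX7A1 level was not tested.

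NDUFA4L2, a relative of NDUFA4 that is known to be induced in low oxygen, was scarce but varied more than any other gene of the set. It had 10.6, 11.3 and 11.6 TPM on Day 3, 7.04, 3.65 and 4.56 TPM at Puberty, 5.67, 42.6 and 24.6 TPM at Year 1 and 5.73, 4.39 and 66.5 TPM in Pregnancy. Year 1 replicates 2 and 3 and Pregnancy replicate 3 lay above the other 9 libraries, which did not exceed 11.6 TPM. With such spread inside 2 stages no pair passed, and Pregnancy over Puberty, 2.07 ± 0.93, had an edgeR adjusted p of 0.67 and turned to -0.06 without Pregnancy replicate 3. Markers of pericytes and endothelium, 7 of 7 found, summed to 186 to 189 TPM on Day 3, 213 to 334 TPM at Puberty, 205, 403 and 431 TPM at Year 1 and 251, 208 and 586 TPM in Pregnancy. Their part in the NDUFA4L2 level was not tested.

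Subunit 4I2, the isoform known from lung and from low oxygen, had a different course from NDUFA4L2. It had 121, 102 and 108 TPM on Day 3, 186, 95.5 and 77.1 TPM at Puberty, 292, 47.3 and 61.9 TPM at Year 1 and 97.8, 93.1 and 75.0 TPM in Pregnancy. Its share in the TPM of 4I1 and 4I2 was 24.5% in Year 1 replicate 1 but 4.56% and 5.39% in replicates 2 and 3, and 19.4% in Puberty replicate 1. The change for Year 1 over Day 3, 0.97 ± 0.55, did not pass (edgeR adjusted p = 0.17) and was -0.15 without Year 1 replicate 1. The sum of granulosa markers, 8 of 8 found, was also highest in these 2 libraries, with 15400, 529 and 720 TPM at Year 1 and 10200, 2280 and 2210 TPM at Puberty. FSHR, a marker of that list, had 20.8, 0.07 and 0.66 TPM at Year 1. At Puberty it went the other way, with 47.0, 80.6 and 70.5 TPM. Theca markers, 2 of 2 found, summed to 4150, 27.0 and 24.8 TPM at Year 1 and to 3040, 2200 and 1030 TPM at Puberty. Smooth muscle markers were likewise highest of their stage there, at 4270 TPM in Year 1 replicate 1 and 2800 TPM in Puberty replicate 1. The part of these 3 cell types in the 4I2 level was not tested.

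COX8C, COX7B2 and COX6B2, isoforms known from the testis in humans and rodents, were highest on Day 3. COX8C had 129.8, 122 and 64.1 TPM on Day 3, 1.81, 1.85 and 0.86 TPM at Puberty, 0.74, 0 and 0.25 TPM at Year 1 and 0.49, 1.64 and 0 TPM in Pregnancy. It fell in Puberty over Day 3 by 5.71 on the log2 scale (SE 0.83, edgeR adjusted p = 0.0013), with 17 counts summed over the Puberty libraries against 1053 on Day 3. On Day 3 it made up 14.4%, 16.9% and 8.06% of the TPM of subunits 8A and 8C. COX7B2 had 0.24, 0.43 and 0.07 TPM at Puberty and 3.86, 4.01 and 4.63 TPM on Day 3 (log2 change -3.74 ± 0.83, edgeR adjusted p = 0.0086). COX6B2 had 0.45, 1.16 and 1.26 TPM at Puberty and 7.87, 5.59 and 7.21 TPM on Day 3 (log2 change -2.47 ± 0.81, edgeR adjusted p = 0.042). Both also passed in Year 1 over Day 3 and in Pregnancy over Day 3, on 1 to 5 summed counts per later stage. Oocyte markers, 10 of 10 found, summed to 8.16 to 228 TPM at the later stages and to 1350 to 2330 TPM on Day 3. Ciliated epithelium markers, 3 of 4 found, summed to 0.07 to 1.23 TPM at the later stages and to 17.9 to 49.5 TPM on Day 3. Their part in the Day 3 level of these isoforms was not tested. Subunit 6A2, the muscle form of subunit 6A, stayed between 16.2 and 37.2 TPM and passed in no pair.

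**Figure D5:**
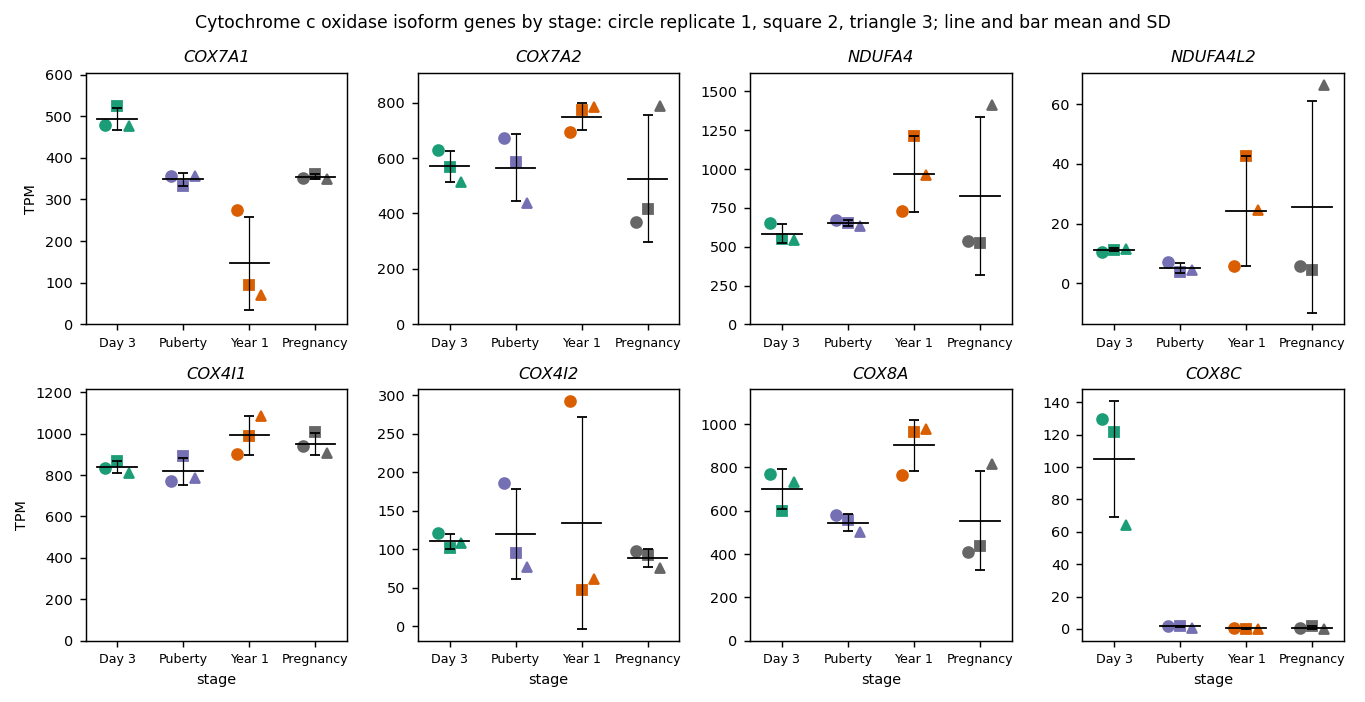
TPM of 8 genes of cytochrome c oxidase in each library, as 4 isoform pairs; circles, squares and triangles are replicates 1, 2 and 3, the line is the stage mean and the bar its SD (n = 3), which may reach below 0. COX7A1 is lowest in Year 1 replicates 2 and 3, NDUFA4L2 is highest in these and Pregnancy replicate 3, COX4I2 is highest in Year 1 replicate 1, and COX8C is at most at 1.85 TPM in the later stages and at 64.1 to 129.8 TPM on Day 3.

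ATP synthase, complex V, made up 0.897% ± 0.0307 of TPM for Day 3, 0.818% ± 0.0911 for Puberty, 1.05% ± 0.0692 for Year 1 and 0.746% ± 0.155 for Pregnancy (SD, n = 3 each). Its F1 head, which makes ATP, was covered by ATP5A1, ATP5B, ATP5C1, ATP5D and ATP5E. Of these 5 genes, 4 rose in Year 1 over Day 3, with a median log2 change of 1.24. The catalytic subunit ATP5B rose by 1.70 ± 0.37 (edgeR adjusted p = 0.0039), with 635, 863 and 821 TPM at Year 1 and 470.4, 405 and 372 TPM on Day 3. The related alpha subunit ATP5A1 did not pass, at 0.82 ± 0.38 (adjusted p = 0.099), with 501, 671 and 596 TPM at Year 1 and 618, 607 and 522 TPM on Day 3. The groups overlapped for ATP5A1 and not for ATP5B, although both proteins stand in equal number in the head.

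ATP5D, the delta subunit of the central stalk, had the lowest p of the 68 genes in the test of any stage (edgeR adjusted p = 0.0019). It had 142, 149 and 145 TPM on Day 3, 146, 137 and 128 TPM at Puberty, 177, 206 and 207 TPM at Year 1 and 92.2, 115 and 126 TPM in Pregnancy. The stages Year 1 and Pregnancy overlapped with no other stage, Year 1 being the highest and Pregnancy the lowest. It rose in Year 1 over Day 3 by 1.24 ± 0.19 (adjusted p = 0.00084) and fell in Pregnancy over Year 1 by 0.98 ± 0.19 (adjusted p = 0.043). Year 1 over Puberty was 0.98 ± 0.19, with an adjusted p of 0.062. Pregnancy replicate 3, at 126 TPM, was no exception for this gene. ATP5E, the epsilon subunit and the most abundant of complex V, rose over Day 3 at Puberty (0.52 ± 0.17, adjusted p = 0.045), at Year 1 (1.06 ± 0.18, adjusted p = 0.0011) and in Pregnancy (0.76 ± 0.17, adjusted p = 0.0079).

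The proton-carrying c ring is encoded by ATP5G1, ATP5G2 and ATP5G3, which make the same mature protein. ATP5G3 had 532, 446 and 463 TPM on Day 3, 819.6, 720.1 and 459 TPM at Puberty, 903, 1001 and 984 TPM at Year 1 and 432, 497 and 667 TPM in Pregnancy. It had the largest rise among those that passed in Puberty over Day 3, 0.84 ± 0.27 on the log2 scale (edgeR adjusted p = 0.041), which was lost in 7 of 12 fits. In Year 1 over Day 3 it rose by 1.81 ± 0.28 (adjusted p = 0.00077). Its share in the TPM of the 3 genes was 33.4% ± 1.96 for Day 3, 46.9% ± 4.57 for Puberty, 51.6% ± 1.76 for Year 1 and 44.5% ± 1.36 for Pregnancy (SD, n = 3 each). The share was higher in every later library than in any Day 3 library. ATP5G1 held 17.3% ± 0.954 at Puberty and 27.2% ± 0.143 on Day 3 (SD, n = 3 each), and ran from 16% to 30.9% in Pregnancy. ATP5G2 had 546, 415 and 418 TPM at Year 1 against 553, 566 and 572 TPM on Day 3, and its log2 change of 0.46 ± 0.14 (adjusted p = 0.022) was -0.13 with library totals.

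The stalk that holds the head still, made by ATP5F1, ATP5H, ATP5J and ATP5O, had a median log2 change of 0.52 for Year 1 over Day 3 and 1 rise of 4, against 24.0% of all genes. That rise was of ATP5J, by 0.87 ± 0.17 (edgeR adjusted p = 0.0023), and ATP5J also rose in Puberty over Day 3 by 0.56 ± 0.17 (adjusted p = 0.03) and in Pregnancy over Day 3 by 0.88 ± 0.17 (adjusted p = 0.0032). Its TPM overlapped in all pairs, with 453 to 692 TPM over the 12 libraries. The small membrane subunits ATP5I, ATP5J2 and ATP5L all rose in Year 1 over Day 3, with log2 changes from 0.95 to 1.32. The inhibitory factor of ATP synthase (ATPIF1) rose in Year 1 over Day 3 by 1.38 ± 0.40 (adjusted p = 0.016), with 505, 839.5 and 865 TPM at Year 1 and 472, 548 and 496 TPM on Day 3. Of the assembly proteins, ATP5S gave the third lowest p for Pregnancy over Puberty, 0.54 ± 0.25 (adjusted p = 0.68). ATP5SL overlaps 6 other annotated genes and its counts are uncertain.

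Genes that serve the same organelle were counted from lists. In Year 1 over Day 3, where 24.0% of all genes rose and 24.0% fell, 10 of 16 citric acid cycle genes rose and 0 fell, with a median log2 change of 1.14. Citrate synthase (CS) rose by 1.86 ± 0.36 (edgeR adjusted p = 0.0023), with 93.2, 175 and 168 TPM at Year 1 and 77.6, 69.1 and 68.1 TPM on Day 3, and SUCLG1 by 1.27 ± 0.27 (adjusted p = 0.0035). Of 26 complex assembly factors tested, 14 rose and 0 fell. NDUFAF3, which helps to build complex I, rose by 1.75 ± 0.24 (adjusted p = 0.00043), and COX10, which makes the haem of complex IV, fell in Pregnancy over Day 3 by 1.14 (adjusted p = 0.0018) and in Pregnancy over Year 1 by 1.08 (adjusted p = 0.04). Of the 17 import genes 9 rose and 1 fell, with TIMM50 higher by 1.23 ± 0.22 (adjusted p = 0.0014) and TOMM34 lower, with a change of -3.43 ± 0.55 (adjusted p = 0.00091). Of 10 genes that shape the inner membrane 6 rose and 0 fell, among them APOOL, by 1.63 ± 0.24 (adjusted p = 0.00061), and PHB2, by 0.71 ± 0.13 (adjusted p = 0.0017).

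Mitochondrial ribosomal proteins were more mixed, with 32 of 76 higher and 5 lower for Year 1 over Day 3 and a median log2 change of 0.44. MRPL17 rose by 1.58 ± 0.19 (edgeR adjusted p = 0.00026), and MRPL54 fell, with a change of -0.69 ± 0.14 (adjusted p = 0.0032). Of 17 regulators of mitochondrial biogenesis 5 rose and 2 fell, with a median of 0.12. The 2 that fell were ESRRG, a nuclear receptor, with a change of -4.23 ± 0.75 (adjusted p = 0.0015), and TFB1M, which methylates mitochondrial ribosomal RNA, with a change of -1.68 ± 0.27 (adjusted p = 0.00095). Cytochrome c (CYCS) rose by 1.22 ± 0.46 (adjusted p = 0.049), and NDUFAB1, the acyl carrier protein within complex I, did not pass, at 0.36 ± 0.25 (adjusted p = 0.26). In Year 1 over Puberty no gene of these lists was called, and all 16 citric acid cycle genes had a positive log2 change, with a median of 0.94. For Pregnancy over Year 1 all 16 were negative, with a median of -0.62 and 0 called, while 3 assembly factors, 3 import genes and 9 ribosomal proteins fell and 0 rose, against 1.62% of all genes that fell and 1.34% that rose.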

How the data were processed

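The mRNA of 12 pig ovaries was analysed, 3 per stage; the 12 small RNA samples were not analysed here. Per the submitters' processing notes, Bowtie2 2.3.4.3, RSEM 1.3.1, DESeq2 1.4.5 and Sscrofa11.1 were used. The authors deposited RSEM expected counts and TPM per gene and library, and, in the authors' deposited table, log2 fold changes and q-values for each pair of stages. Of the deposited log2 fold changes only the sign was used, to count genes as higher or lower.

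Expected counts were rounded. Genes were kept with edgeR's filterByExpr (minimum count 10), leaving 15699. Counts were scaled by TMM and tested with edgeR 4.0.16 (R 4.3.3), quasi-likelihood, 1 term per stage, all 12 libraries in 1 fit. Log2 changes are later over earlier stage, with SE as the change over the square root of F. All 15699 genes entered the Benjamini-Hochberg adjustment, and the threshold was 0.05. TPM gave levels and shares and was not tested. The fit was also run on simulated counts with known changes in Puberty over Day 3 only, and the outcome is not given here. That simulation held no library unlike its stage mates, so it cannot speak for Year 1 or Pregnancy. The members, lists and rules were chosen with earlier results of these data known. Genes named are the 2 lowest p in the test of any stage and the highest TPM per complex, the 3 largest rises and falls per pair (lowest p where none passed), a fixed set of 25 subunits, and the 2 lowest p per list; other named genes were chosen after their values were seen. Alternatives were other scalings, filters, DESeq2 1.42.0, limma voom (limma 3.58.1), a fit of only the 2 stages, a replicate term, leaving out libraries, and library totals, which was added after seeing the data. Of the 69 genes 21 overlap another annotated gene. Replicate numbers gave deviation correlations of -0.366 to 0.377 between stages and do not pair the sows. The values of 1 gene of the set are not reported here by name.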

Additional observations from a re-analysis of the deposited data

How the results depend on the processing

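Each result was recomputed under other scalings, filters, tools and sets of libraries, and the cause of each shift was not tested. Counts are of the 68 genes, with the share of all genes called in either direction after them. For Puberty over Day 3, 4 rose and 0 fell. This became 1 rise and 1 fall with RLE scaling (28.0%), upper quartile scaling (27.2%) or a minimum count of 50 (27.3%), and 1 rise with the replicate number as a block (25.6%). A fit of only the 2 stages called 19, of which 15 rose and 4 fell (51.2%), and limma voom called 30, of which 25 rose and 5 fell (58.7%). For Year 1 over Puberty, DESeq2 called 34, all higher (21.2%), and limma voom 63, of which 62 rose and 1 fell (59.6%). For Pregnancy over Year 1, where 2 fell, the falls were 4 with RLE (3.59%) or a minimum count of 50 (4.62%), 1 with library totals (1.85%) and 20 with DESeq2 (18.6%), with no rise. They were 0 with no filter (0.699%), in a fit of only the 2 stages (0.0%) or with the block (0.0%), and limma voom called 60, of which 59 fell and 1 rose (56.2%). For Year 1 over Day 3, library totals called 20, of which 19 rose and 1 fell (50.3%), and the block 42 (45.3%). For Pregnancy over Day 3, where 11 rose, 7 rose with RLE (32.3%), a minimum count of 50 (32.5%), a fit of only the 2 stages (37.4%) or the block (29.9%). Upper quartile scaling called 7, of which 6 rose and 1 fell (31.1%), library totals 6, of which 1 rose and 5 fell (30.7%), and limma voom 26, of which 14 rose and 12 fell (55.4%). For any stage, library totals gave 19 (44.0%) and limma voom 66 (85.7%). Without Year 1 replicate 1 and Pregnancy replicate 3, 16 rose and 4 fell in Puberty over Day 3, 20 in all (52.3%). For Year 1 over Puberty 57 rose and 1 fell, 58 in all (51.6%). For Pregnancy over Year 1, 1 rose and 58 fell, 59 in all (25.1% of all genes higher and 24.9% lower). For Pregnancy over Day 3, 9 rose and 12 fell, 21 in all (46.8%), and 64 differed at any stage (76.5%).

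Leaving out 1 library at a time gave 0 to 13 calls for Puberty over Day 3, 0 to 50 for Year 1 over Puberty, 0 to 51 for Pregnancy over Year 1, 32 to 61 for Year 1 over Day 3, 5 to 17 for Pregnancy over Day 3 and 20 to 62 for any stage. The median log2 changes ran from 0.01 to 0.22, 0.75 to 1.01, -1.01 to -0.39, 0.89 to 1.00 and 0.03 to 0.52 for the same 5 pairs, and from -0.16 to 0.41 for Pregnancy over Puberty. With library totals the medians were -0.11 for Puberty over Day 3, 0.49 for Year 1 over Puberty, 0.31 for Year 1 over Day 3 and -0.027 for Pregnancy over Day 3, and upper quartile scaling gave 0.67 for Year 1 over Day 3. Pregnancy over Year 1 had -1.11 with limma voom and -1.19 without both libraries. The sign turned for ATP5G2 (-0.13) and COX7A2L (-0.015) with library totals in Year 1 over Day 3. Leaving out 1 library moved subunit 4I2 in Year 1 over Day 3 between -0.15 (without Year 1 replicate 1) and 1.37, and NDUFA4L2 in Pregnancy over Puberty between -0.058 (without Pregnancy replicate 3) and 2.57; without both libraries they were at -0.14 and -0.058.

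As shares of expected counts the 69 genes made up 0.681%, 0.648%, 0.919% and 0.694% from Day 3 to Pregnancy, since short genes weigh less than in TPM. On that scale the mean shares over the 12 libraries were 10.4% for subunit 6A2, 15.9% for COX7A1, 6.21% for NDUFA4L2, and 17.5%, 42.1% and 40.3% for ATP5G1, ATP5G2 and ATP5G3. Motifs in promoters were not run. With 3 libraries per stage, and 1 unlike the others in Year 1 and in Pregnancy, a missed threshold does not show that levels were equal.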
